A study of Mus musculus with 6 samples.

Results

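Voltage-gated sodium and calcium channels are described here in lumbar spinal cord of mouse embryos. The 35 genes are those with a single symbol in the array annotation that names a sodium channel alpha or beta subunit, a calcium channel alpha1, alpha2delta or beta subunit, or a gamma subunit, out of 19938 genes measured. They comprise 8 sodium alpha, 3 sodium beta, 10 calcium alpha1, 4 alpha2delta, 3 calcium beta and 7 gamma genes. Where a gene had several rows on the array, the row of highest mean signal over the 6 arrays stood for it. The samples were lumbar cords of E15.5 embryos of strain SV129, 3 from Tnc -/- embryos and 3 from wild-type embryos. Tnc encodes tenascin-C, a glycoprotein of the extracellular matrix. The labels call the 3 samples of each genotype biological replicates, and give neither the litters nor the part of Tnc that was deleted, so p-values measure the spread between these samples. Whole lumbar cord was sampled, so fewer cells of a type and less RNA per cell cannot be told apart.

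In a voltage-gated sodium or calcium channel, a large alpha subunit forms the pore and carries the voltage sensors, and smaller auxiliary subunits set its traffic and gating. Sodium channels cluster at the axon initial segment and start the action potential, and calcium channels turn that signal into calcium entry at terminals, dendrites and cell bodies. In the embryonic cord these channels appear as newborn neurons become excitable, before myelinated axons with nodes exist in number. Most gamma genes are named after a calcium channel subunit of muscle, but their products are mainly known as TARPs, partners that carry AMPA-type glutamate receptors to synapses. In hippocampus, tenascin-C has been tied to L-type calcium channel function, and tenascins bind sodium channel beta subunits, which is background to asking whether channel genes differ without Tnc.

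The deposited values are log2 signals of Affymetrix arrays, and the median over all rows lay between 6.96 and 7.10 on each array. As a guide to background, the 95th percentile of the mean signals of 1233 olfactory, vomeronasal and taste receptor genes was taken, which was 6.14. Tnc itself read 9.64, 9.76 and 9.47 in knockout cords, against 10.72, 10.22 and 10.02 in wild-type cords. All knockout values lay below all wild-type values (difference -0.69, 95% confidence interval -1.09 to -0.30, exact two-sided permutation p = 0.1, the smallest that 3 against 3 allows; limma adjusted p = 1). Knockout replicates 1 and 3 carried Y-linked signal (mean of 3 Y-linked genes 8.20 and 7.86) and the 4 other arrays did not (4.32 to 4.48), so the sex of the embryos is not balanced between genotypes. All 16 neuron markers checked were above the guide on all 6 arrays.

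Of the 35 channel genes, 28 were above the guide on all 6 arrays, 3 on some and 4 on none. In all, 14070 of the 19938 genes were above it on all 6 arrays. The median channel gene stood at the 70.8th percentile of signal among all genes, and 5 stood above the 97th percentile: Cacng4, Cacng2, Cacng7, Scn3b and Scn2a. Percentiles and orders given here are of array signal. The probes of different genes bind with different strength, so an order of signals is not an order of transcript amounts.

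Promoters differed widely in CG pairs, the sites of DNA methylation, whose density is known to separate broadly used promoters from those used in few tissues. RefSeq promoter windows (assembly GRCm38.p6, 250 bases before to 50 bases after the annotated start) were found for 27 of the 35 genes. The 3 alpha2delta genes with a window held 41 to 43 CG pairs, against a median of 15 over 15563 genes of the array. Calcium alpha1 genes had a median of 22.3 pairs and gamma genes of 11. Sodium alpha genes had the lowest median, 6 pairs, with Scn8a at 25. Genes above the guide on all arrays had a median of 19.3 pairs (20 genes), and the other 7 had 9. Across the 27 genes CG pairs and mean signal had a Pearson r of 0.42 and a Spearman rho of 0.43, against 0.60 and 0.64 across all 15563 genes. This is a description across genes, which are not independent replicates. Scn2a (mean of 6 pairs over 2 windows, signal 12.03) and Cacng8 (2 pairs, signal 9.40) had few pairs and clear signal, while Scn4b had 26 pairs and a signal of 5.71.

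**Figure D1:**
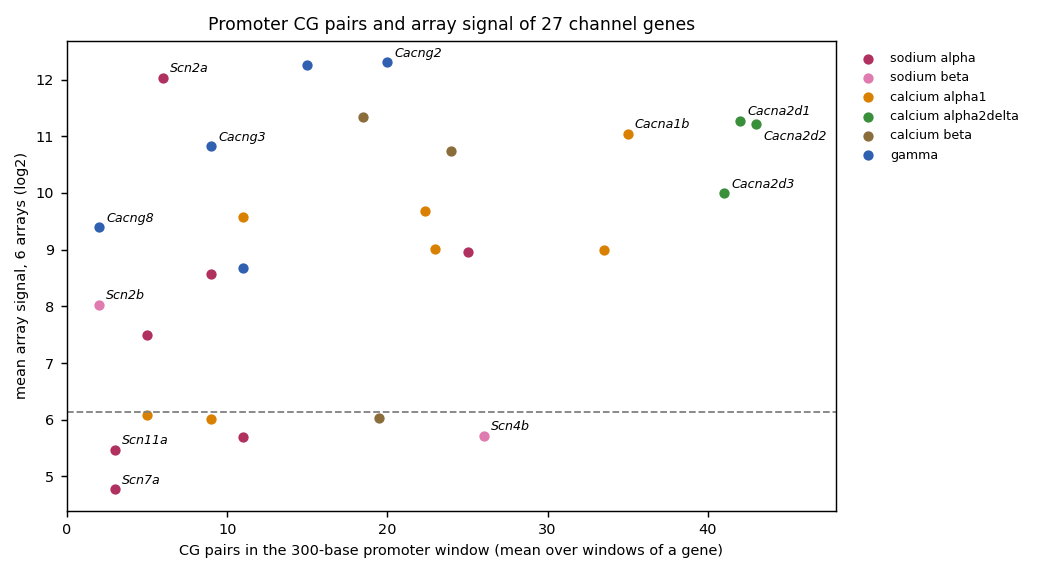
CG pairs in the promoter window (x axis, mean over the windows of a gene) against mean log2 array signal over 6 arrays (y axis), a point per channel gene, coloured by family, with the background guide of 6.14 dashed. The 3 alpha2delta genes lie at the right with 41 to 43 pairs, and Scn2a lies at the upper left.

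Among the pore-forming sodium channel genes, 5 were above the guide on every array. Scn2a, the channel of the early axon initial segment, read 12.13, 11.9997 and 12.05 in knockout cords, against 12.24, 11.96 and 11.79 in wild-type cords. Scn8a, which takes over at mature initial segments and nodes, read 8.98, 9.05 and 8.97 in knockout, against 9.12, 8.82 and 8.84 in wild type. Scn3a, known as the channel of embryonic neurons, read 8.75, 8.73 and 8.82 in knockout, against 9.08, 8.75 and 8.59 in wild type. In all 3 genes the knockout arrays lay inside the wild-type range, whose top was wild-type replicate 1 each time. Scn9a, a channel of sensory and other peripheral neurons, averaged 8.61 ± 0.16 in knockout and 8.54 ± 0.16 in wild type (SD, n = 3 each). Scn1a, best known from inhibitory interneurons, averaged 7.55 ± 0.10 and 7.45 ± 0.19 in the same order of genotypes.

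Scn10a and Scn11a, channels of pain-sensing neurons, were not above the guide on any array, and neither was Scn7a. Scn10a read 5.71, 6.05 and 5.76 in knockout cords, against 5.34, 5.56 and 5.75 in wild-type cords, and its difference of 0.29 (95% confidence interval -0.01 to 0.59) was the largest of the 35 with all arrays. It was 0.19 without knockout replicate 2 and also without wild-type replicate 1, where Cacng3 was larger, and 0.39 without wild-type replicate 3. The groups overlapped in the deposited values of all 6 arrays. They did not overlap after renewed quantile normalization, median centring or cyclic loess, nor without knockout replicate 1 or wild-type replicate 3. Of all genes, 6.69% to 7.17% did not overlap after those normalizations, and 12.9% and 23.5% without those arrays in turn. Values this dim are not a measure of transcript. Scn11a averaged 5.47 in both genotypes, and Scn7a, an atypical sodium-sensing channel of glia and other cells, averaged 4.81 in knockout and 4.74 in wild type. Sensory ganglia, which lie beside the cord, use these channels. Of 8 ganglion markers measured, 5 were above the guide on all arrays and 2 on none, and their mean signal per array ran from 7.44 to 7.54 in knockout and from 7.35 to 7.44 in wild type. The markers differed widely in 6-array mean, from 9.64 for Pou4f1 and 9.57 for Prph to 7.10 for P2rx3 and 5.71 for Trpv1. Whether ganglion tissue was in the samples, and its part in the values of Scn9a, Scn10a and Scn11a, was not tested.

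The beta subunits, single-pass membrane proteins that modulate gating and act in adhesion, ranged from under the guide to near the top of the set. Scn3b read 12.28, 12.28 and 12.21 in knockout cords, against 12.30, 12.20 and 12.10 in wild-type cords. Scn2b read 8.05, 8.10 and 7.97 in knockout, against 8.05, 8.02 and 7.99 in wild type. Scn4b read 5.73, 5.68 and 5.66 in knockout, against 5.61, 5.68 and 5.93 in wild type, under the guide. For all 3 genes the genotypes overlapped, and the differences were 0.05, 0.02 and -0.05.

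**Figure D2:**
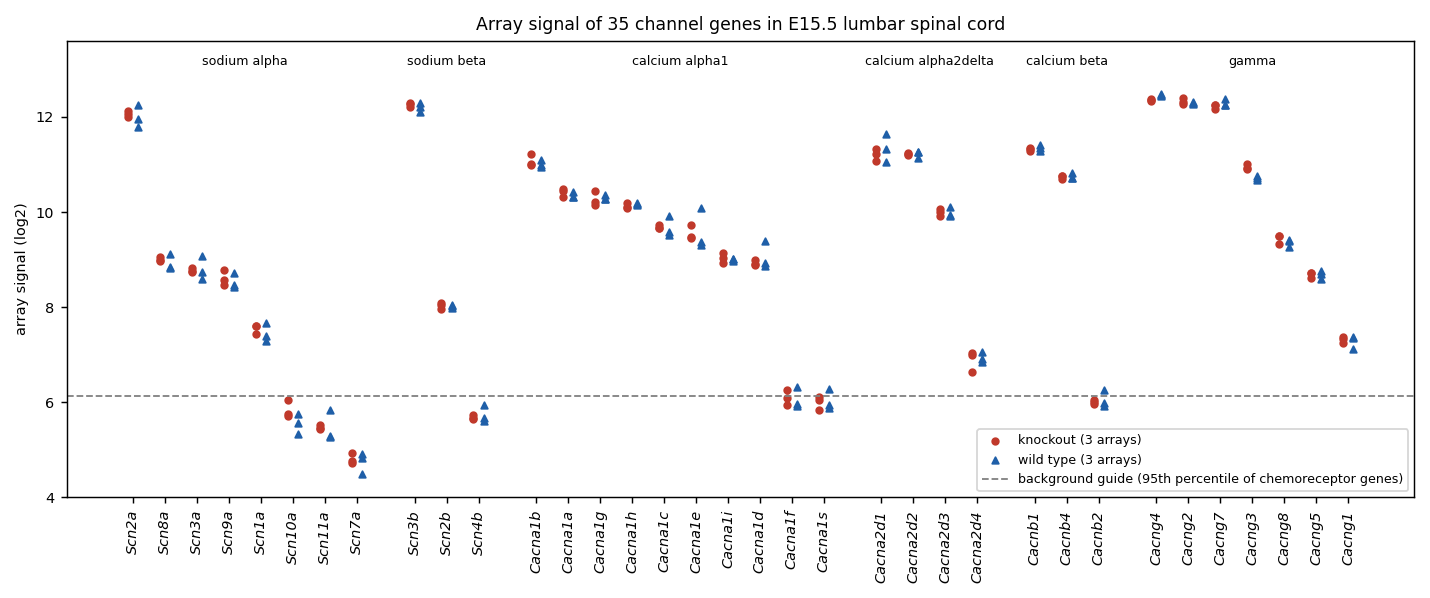
Log2 array signal (y axis) of the 35 channel genes (x axis, by family and then by mean), with 3 knockout arrays (circles, left) and 3 wild-type arrays (triangles, right) for each gene, and the background guide at 6.14 dashed. The spread between genes, from 4.77 to 12.40 in mean signal, is far wider than that between genotypes, and 28 genes have every point above the guide.

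The calcium alpha1 genes of nerve terminals were all above the guide. Cacna1b, the N-type channel of presynaptic terminals, read 10.99, 11.02 and 11.23 in knockout cords, against 11.10, 10.98 and 10.94 in wild-type cords. Cacna1a, the P/Q-type channel of fast synapses, read 10.31, 10.43 and 10.49 in knockout, against 10.43, 10.32 and 10.33 in wild type. Cacna1e, the R-type channel, read 9.47, 9.45 and 9.73 in knockout, against 10.07, 9.37 and 9.30 in wild type. Cacna1e had the widest range over the 6 arrays of all 35 genes, 0.77, which came from wild-type replicate 1, and its difference was -0.03 (95% confidence interval -0.48 to 0.42).

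The T-type genes, whose channels open near the resting potential, had narrow spreads in wild type. Cacna1g read 10.22, 10.16 and 10.44 in knockout cords, against 10.36, 10.28 and 10.27 in wild-type cords. Cacna1h averaged 10.13 ± 0.05 in knockout and 10.17 ± 0.02 in wild type, and Cacna1i 9.03 ± 0.10 and 8.999 ± 0.02 in the same order (SD, n = 3 each). The intervals of all 3 differences lay within 0.25 log2 units of 0.

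Of the L-type genes, the neuronal pair Cacna1c and Cacna1d was above the guide on all arrays, and the pair known from skeletal muscle and retina was not. Cacna1c read 9.66, 9.66 and 9.72 in knockout cords, against 9.91, 9.53 and 9.57 in wild-type cords. Cacna1d read 8.90, 8.88 and 8.999 in knockout, against 9.38, 8.93 and 8.87 in wild type. In both genes wild-type replicate 1 was the highest array and the knockout arrays lay within the wild-type range. Cacna1d had a difference of -0.14 (95% confidence interval -0.45 to 0.17), the lowest of the 35, and it was 0.02 without wild-type replicate 1. Cacna1s, the skeletal muscle channel, averaged 6.00 in knockout and 6.03 in wild type, and Cacna1f, the retinal channel, 6.10 and 6.07.

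The alpha2delta subunits, extracellular proteins that bring channels to the surface and promote synapse formation, were above the guide on all arrays. Cacna2d1, which binds gabapentin, read 11.32, 11.22 and 11.08 in knockout cords, against 11.63, 11.33 and 11.06 in wild-type cords. Cacna2d2 read 11.22, 11.20 and 11.23 in knockout, against 11.26, 11.14 and 11.26 in wild type. Cacna2d3 read 10.07, 10.01 and 9.91 in knockout, against 10.11, 9.93 and 9.95 in wild type. Cacna2d1 thus spread over 0.57 log2 units between arrays and Cacna2d2 over 0.11, with overlapping genotypes in each. Cacna2d1 had 2 rows, which differed between genotypes by -0.13 and -0.14, and its difference was 0.01 without wild-type replicate 1. Cacna2d4, best known from photoreceptors, averaged 6.89 ± 0.22 in knockout and 6.94 ± 0.11 in wild type (SD, n = 3 each).

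Cytoplasmic calcium channel beta subunits, which bind the pore protein and carry it to the membrane, overlapped between genotypes throughout. Cacnb1 read 11.27, 11.35 and 11.33 in knockout cords, against 11.34, 11.41 and 11.29 in wild-type cords. Cacnb4 read 10.76, 10.75 and 10.69 in knockout, against 10.83, 10.71 and 10.72 in wild type. Both differences, -0.03 and -0.02, had intervals within 0.20 log2 units of 0. Cacnb2 read 5.96, 6.01 and 6.04 in knockout, against 5.93, 5.97 and 6.26 in wild type. Its row is annotated through a single cDNA clone and no RefSeq transcript, so it is not known to read the main transcripts.

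The gamma genes held the 3 highest signals of the set and the only 2 genes whose genotypes did not overlap. Cacng3, a TARP, read 10.90, 11.001 and 10.93 in knockout cords, against 10.76, 10.68 and 10.71 in wild-type cords. Cacng4, a TARP of the developing nervous system, read 12.37, 12.34 and 12.35 in knockout, against 12.44, 12.46 and 12.48 in wild type. The 3 knockout arrays were all higher for Cacng3 and all lower for Cacng4. Cacng2 (stargazin) read 12.26, 12.39 and 12.31 in knockout, against 12.32, 12.28 and 12.29 in wild type. Cacng7 read 12.25, 12.25 and 12.17 in knockout, against 12.24, 12.37 and 12.24 in wild type. For these 2 genes the genotypes overlapped, as they did for the TARP Cacng8 (difference 0.08), for Cacng5 (0.00) and for Cacng1 (0.04), the gamma subunit of the skeletal muscle channel.

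The difference of Cacng3 was 0.23 (SE 0.07, 95% confidence interval 0.06 to 0.39), which puts knockout at 117% of wild type on the linear scale. The limma adjusted p was 1 and the unadjusted p 0.0123, and the exact permutation p was 0.1. The difference of Cacng3 lay between 0.20 and 0.25 when each array was left out in turn. Its highest knockout value came from replicate 2, the knockout array without Y-linked signal. That is the only such knockout array, so these samples do not separate embryo sex from genotype. The difference of Cacng4 was -0.11 (SE 0.07, 95% confidence interval -0.26 to 0.04), with a limma adjusted p of 1. It lay between -0.12 and -0.10 with an array left out, and its groups overlapped when each array was centred on its median.

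No channel gene passed the test between genotypes. By limma, 0 of 35 had an adjusted p under 0.05, against 0 (0%) of all genes. At an unadjusted p under 0.05 there was 1 channel gene higher in knockout, Cacng3, and 0 lower, where 0.933% of all genes were higher, 0.767% lower and 1.70% either. Groups did not overlap for 2 of 35, where 5.82% of all genes did not (3.18% higher and 2.64% lower in knockout). These shares are close to the background for a set of 35. Of the 35 genes, 19 stood higher and 16 lower in knockout, with a median difference of 0.01, against 9261 higher and 10677 lower and a median of -0.01 over all genes.

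Intervals given here are for single genes, without adjustment for the number of genes, and bound differences of array signal. For 34 of the 35 genes the 95% confidence interval lay within 0.5 log2 units (1.41-fold) of 0 on both sides, the exception being Scn10a under the guide. That was so for 95.03% of all genes. Within 0.25 log2 units lay the intervals of 14 channel genes (40.0%), against 35.1% of all genes. The interval reached beyond 0.25 for each of the 8 sodium alpha genes, whose wild-type SD had a median of 0.21, against 0.12 over all genes.

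**Figure D3:**
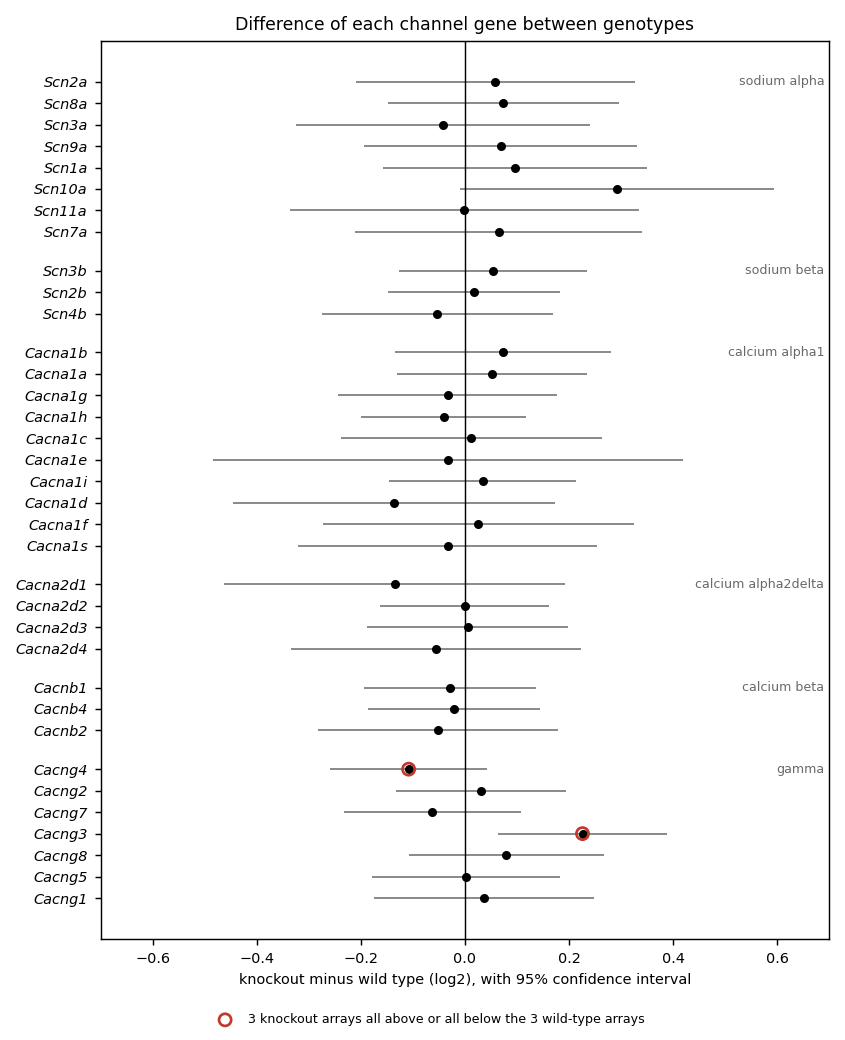
Knockout minus wild type in log2 units (x axis) for each of the 35 channel genes (y axis, by family), with points for the estimates and bars for the limma 95% confidence intervals. Of the 35 intervals, that of Cacng3 does not reach 0, and red rings mark Cacng3 and Cacng4, whose 3 knockout arrays lie all above or all below the 3 wild-type arrays.

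Both the highest and the lowest array were wild-type for 12 of the 28 channel genes above the guide (42.9%), against 35.1% of all genes above it. The SD was larger in wild type than in knockout for 17 of the 28 (60.7%), against 66.5% of all genes above the guide. Wild-type replicate 1 was the highest of the 6 arrays for 13 of the 28 channel genes above the guide (46.4%), among them Scn1a, Scn2a, Scn3a, Scn8a, Cacna1c, Cacna1d and Cacna1e. Of all genes above the guide it was the highest for 24.3%. Sodium alpha genes above the guide stood on average 0.20 above their own 6-array mean in wild-type replicate 1 and 0.18 below it in wild-type replicate 3, and between -0.03 and 0.06 in knockout arrays. Calcium alpha1 genes above the guide stood 0.16 above it in wild-type replicate 1, and gamma genes between -0.02 and 0.03 on every array. The 16 neuron markers stood between -0.01 and 0.05 in knockout and between -0.04 and -0.01 in wild type. Of these markers 12 were higher and 4 lower in knockout, with a median difference of 0.06 and 0 past the test. Groups did not overlap for 3 of them, all higher in knockout, where 3.18% of all genes were higher without overlap. Wild-type replicate 1 was also the highest array for axon initial segment partners (0.08) and for presynaptic calcium channel partners (0.07). It was not for other related lists. Channel modulators stood at 0.01 there and at 0.03 in knockout replicate 1. Genes of calcium release, store entry and extrusion stood at 0.02 there and at 0.04 in knockout replicate 2. Related cation channels stood at -0.01 there and at 0.03 in wild-type replicate 3.

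**Figure D4:**
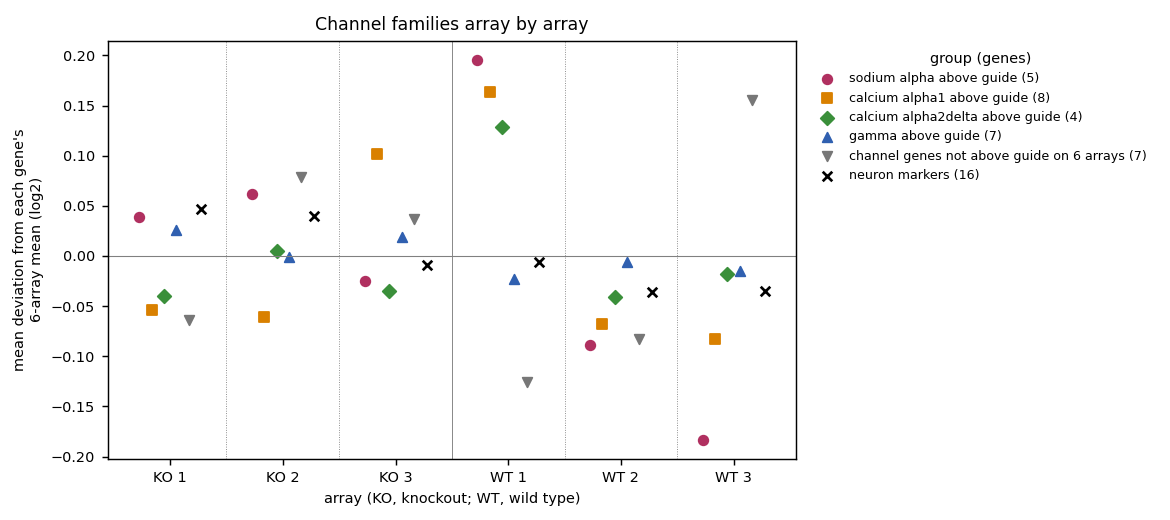
Mean deviation from each gene's own 6-array mean (y axis, log2) for channel families and for 16 neuron markers on each array (x axis, knockout left of wild type). Sodium alpha, calcium alpha1 and alpha2delta genes stand at 0.13 to 0.20 in wild-type replicate 1, and the 7 channel genes that are not above the guide on all 6 arrays stand at -0.13 there.

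Without wild-type replicate 1 the count of channel genes whose groups do not overlap was 9 instead of 2, where the share over all genes was 16.2%. Of these, 8 stood higher in knockout (Scn1a, Scn2a, Scn8a, Scn3b, Cacna1b, Cacna1c, Cacna1e and Cacng3) and Cacng4 lower. At an unadjusted p under 0.05 only Cacng3 was found in that fit, and the adjusted p of every channel gene was at least 0.999. Without wild-type replicate 3 the count was 5, where the share over all genes was 23.5%.

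Scn2a was the gene with most rows, 14, and whether all of them read the same transcript was not tested. The rows had mean signals from 8.31 to 12.03. Knockout stood higher in 11 rows and lower in 3, with differences from -0.06 to 0.14 and a median of 0.06. Groups overlapped in every row. Wild-type replicate 1 was the highest array in 12 of the 14 rows and wild-type replicate 3 the lowest in 9. The rows share arrays and a gene, so they are not replicates. The annotation also holds 3 rows that name several of Scn1a, Scn2a, Scn3a and Scn9a together, and these differed by -0.07, 0.07 and 0.02. Signal shared between rows of these related genes was not tested.

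**Figure D5:**
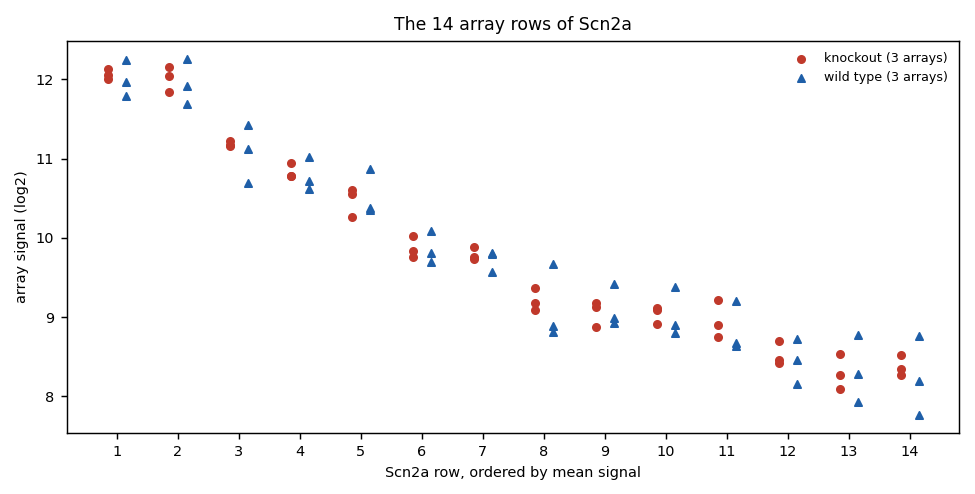
Log2 array signal (y axis) of the 14 rows annotated to Scn2a (x axis, ordered by mean signal), with 3 knockout arrays (circles, left) and 3 wild-type arrays (triangles, right) in each. The genotypes overlap in every row, and a wild-type array, mostly replicate 1, is at the top in most.

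Several members lie side by side in the genome, and their mean signals are given in brackets. On chromosome 2 Scn3a (8.79) is next to Scn2a (12.03), and Scn1a (7.499), Scn9a (8.57) and Scn7a (4.77) follow each other beyond 3 other protein-coding genes. All 5 were lowest in wild-type replicate 3, which was the lowest array for 11 of the 35 channel genes and for 18.6% of all genes. On chromosome 11 Cacng1 (7.30), Cacng4 (12.40) and Cacng5 (8.68) are adjacent, and of them only Cacng4 had groups that did not overlap. On chromosome 7 Cacng7 (12.25) is next to Cacng8 (9.40), on chromosome 9 Scn10a (5.69) is next to Scn11a (5.47), and Scn2b (8.03) is next to Scn4b (5.71).

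Genes whose proteins anchor, traffic or regulate these channels did not pass either. Of 15 measured proteins of the axon initial segment, among them the ankyrin gene Ank3 that holds sodium channels there (11.70 in knockout and 11.68 in wild type), 0 passed, with a median of 0.02. Cntnap1, a paranodal adhesion protein, averaged 8.29 ± 0.10 in knockout and 8.11 ± 0.06 in wild type without overlap (SD, n = 3 each). Of 22 channel modulators 0 passed, with a median of 0.01. The secretase gene Bace2, close relative of the Bace1 enzyme that cleaves sodium beta subunits, differed by 0.36 and Bace1 by 0.10, both without overlap. Gem, which inhibits calcium channels, differed by -0.26. Of 17 presynaptic partners of calcium channels 0 passed, with a median of 0.00. Syt2, a calcium sensor of fast release, averaged 8.52 ± 0.06 in knockout and 8.21 ± 0.17 in wild type (SD, n = 3 each), a difference of 0.31 without overlap.

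Of 23 genes for calcium release, store entry and extrusion 0 passed, with a median of 0.03. The reticulum calcium pump Atp2a2 and the junctophilin Jph3 differed by 0.10 each, without overlap. Of 17 related cation channel genes 0 passed, with a median of 0.01. The pacemaker channel Hcn2 averaged 9.49 ± 0.04 in knockout and 9.31 ± 0.06 in wild type, without overlap, and the sodium leak channel Nalcn 9.54 ± 0.05 and 9.46 ± 0.21 in the same order (SD, n = 3 each). Over the 94 genes of these 5 lists limma gave 0 with an adjusted p under 0.05 and 3 with an unadjusted p under 0.05, all higher in knockout: Bace2, Syt2 and Hcn2. Groups did not overlap for 1, 3, 3, 2 and 2 genes of these lists, in the order given here, each higher in knockout. Of all genes 0.933% were higher at that p, and 3.18% were higher without overlap.

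Other cell types that carry these channels were read through their markers. Skeletal muscle, which uses Cacna1s and Cacng1, had 9 of 16 markers above the guide on all arrays and 6 on none, with a mean signal per array of 6.44 to 6.57 in knockout and 6.28 to 6.66 in wild type. It was lowest in wild-type replicate 1 and highest in wild-type replicate 3, as were Cacng1, Cacnb2, Scn4b and Scn11a. Cacna1s was highest in wild-type replicate 3 and lowest in knockout replicate 1. Cacnb1 was highest in wild-type replicate 2, and Cacna2d1 was highest in wild-type replicate 1 and lowest in wild-type replicate 3. Of all genes 31.1% were highest in wild-type replicate 3, as were 5 of the 7 channel genes not above the guide on all arrays. Those 7 stood on average at -0.13 in wild-type replicate 1 and at 0.16 in wild-type replicate 3. The part of skeletal muscle in the channel values was not tested. All 8 oligodendrocyte precursor markers stood higher in knockout, with a median of 0.14 and 0 past the test. Groups did not overlap for 4 of them, and 2, Nkx2-2 (0.30) and Olig2 (0.24), had an unadjusted p under 0.05 by limma, where 3.18% of all genes were higher without overlap and 0.933% higher at that p. Their mean signal per array was 8.73 to 8.82 in knockout and 8.58 to 8.61 in wild type. These cells carry sodium and calcium channels too, and their part in the channel values was not tested. Of 12 radial glia and astrocyte markers 7 stood higher, with a median of 0.01. Of 9 Schwann cell markers 4 stood higher, with a median of -0.00, and of 8 cardiac markers 2, with a median of -0.07.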

How the data were processed

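Whole-transcript arrays of 6 lumbar cords, 3 knockout and 3 wild-type, were analysed. The deposited values are log2 signals. The submitters' processing notes name RMA, without a version, as what the authors ran. It subtracts background, brings arrays to one distribution and joins the probes of a row, so a global shift between arrays would be lost. Precision is limited by having 6 arrays. The platform annotation gave 21789 of 35557 rows a single symbol, 1621 several, and did not list 12147. Symbols were updated through entrez identifiers against RefSeq (GRCm38.p6), where 19856 of 19938 genes matched. That table also gave chromosomes and neighbours. The row of highest mean stood for a gene.

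Knockout and wild type were compared over all 19938 genes with limma 3.58.1 (lmFit and eBayes, R 4.3.3), two-sided, with Benjamini-Hochberg adjustment and a threshold of 0.05, and single genes by exact permutation. The test was checked on simulated data. Members, gene lists and tests were chosen with earlier results of these data known. All 35 members are accounted for. Values per array are given for the 3 of highest mean per family, for members with groups apart, for the 5 of largest difference and for the 4 of smallest p. Cacna1c and Cacna1e, outside this rule, were chosen after their values were seen. From each list up to 3 genes of smallest p and 2 of highest mean could be named. Alternatives were leaving out each array, a replicate block, 2 filters, an intensity trend (plain and robust), array weights, 3 normalizations, the mean of a gene's rows, every row, 2 other background guides and a Y-linked covariate. Deviations of same-numbered arrays from their group means correlated at 0.35, -0.07 and 0.45 for replicates 1, 2 and 3. Those of differently numbered arrays correlated at -0.47 to 0.28. The labels state no pairing, and these values do not settle whether the numbers pair the samples. Some items of these families are not reported here.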

Additional observations from a re-analysis of the deposited data

How the results depend on the processing

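The count of channel genes past an adjusted p of 0.05 was 0 under each alternative run, and the smallest adjusted p was 0.0754, for Cacng3 with array weights (weight 6.39 for wild-type replicate 2 and 0.27 for wild-type replicate 3). Over all features 9 of 35557 rows passed when every row was tested, and 0 to 4 genes passed with an array left out (4 without knockout replicate 2). Channel genes at an unadjusted p under 0.05 by limma numbered 1, against 0 to 4 with an array left out and 7 with array weights. There were 2 each with the replicate block, the Y-linked covariate and the intensity trend, with or without robust fitting. Renewed quantile normalization, median centring and cyclic loess gave 2 each too. Of all genes 1.70% were at that p in the main fit. That share was not counted under the alternatives, so their counts have no background beside them. The replicate block added Scn10a and changed no other call. Scn10a was also the gene added by the Y-linked covariate and by each of the 3 normalizations, and Cacng4 was added by the intensity trend. Channel genes with groups apart numbered 2, and 3 to 9 with an array left out. The share of all genes with groups apart was 5.82% in the main fit and rose in every fit with an array left out. It was 16.2% without wild-type replicate 1, where the channel count was 9, and 23.5% without wild-type replicate 3, where it was 5. The rise was thus not confined to channel genes. The median channel difference of 0.01 ran from -0.03 to 0.03 with an array left out, and Tnc from -0.84 to -0.49. The Y-linked covariate rests on knockout replicate 2 alone against wild type, and gave Cacng3 0.29 and Scn10a 0.49. Median centring shifted the median of all genes to 0.02.

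Directions of single genes were mostly unsettled: 25 of 35 changed sign with some array left out, and 26 under some alternative. Their lowest and highest differences with an array left out were, for sodium channels, Scn2a -0.0455 and 0.1793, Scn3a -0.1496 and 0.0943, Scn9a -0.0195 and 0.1601, Scn11a -0.0967 and 0.1808, Scn7a -0.0608 and 0.1471, Scn2b -0.0115 and 0.0532, and Scn4b -0.1182 and 0.0426. For calcium alpha1 genes they were Cacna1b -0.0006 and 0.1194, Cacna1c -0.0601 and 0.1329, Cacna1d -0.2309 and 0.0246, Cacna1e -0.1732 and 0.2114, Cacna1f -0.0563 and 0.1522, Cacna1g -0.1167 and 0.0237, Cacna1i -0.0184 and 0.0834, and Cacna1s -0.1094 and 0.0905. For the other subunits they were Cacna2d1 -0.2745 and 0.0107, Cacna2d2 -0.0386 and 0.0180, Cacna2d3 -0.0326 and 0.0622, Cacna2d4 -0.1294 and 0.0722, Cacnb1 -0.0582 and 0.0028, Cacnb2 -0.1155 and 0.0516, Cacnb4 -0.0420 and 0.0170, Cacng1 -0.0453 and 0.0870, Cacng2 -0.0056 and 0.0605, and Cacng5 -0.0466 and 0.0401. With array weights the sign turned for Cacna1e (0.1015), Cacna1i (-0.0133), Cacna1s (0.0693), Cacna2d2 (0.0571), Cacna2d4 (0.0657), Cacnb2 (0.0217), Cacnb4 (0.0224), Cacng1 (-0.0412), Cacng8 (-0.0069), Scn11a (0.1700) and Scn4b (0.0001). With renewed quantile normalization it turned for Cacna1s (0.0028), Cacna2d2 (0.0018) and Scn11a (0.0371), with median centring for Cacna2d2 (0.0296), Cacnb1 (0.0018), Cacnb4 (0.0096) and Scn11a (0.0293), and with cyclic loess for Scn11a (0.0218). With the Y-linked covariate it turned for Cacna1i (-0.0572), Cacna1s (0.0308), Cacna2d4 (0.0680), Cacnb1 (0.0069), Cacng1 (-0.0387), Cacng5 (-0.0627), Cacng8 (-0.0285) and Scn11a (0.0464). The cause was not tested. Scn1a, Scn8a, Scn10a, Scn3b, Cacna1a, Cacna1h, Cacng3, Cacng4 and Cacng7 kept their sign under every alternative run.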
